A study of Homo sapiens with 33 samples.

Results

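Of the 191842 intervals that the peak caller listed for replicate 1 of wild-type (WT) MITF, 1241 were clustered sites with 4 or more separate summits that overlapped intervals of 4 or more summits in WT replicates 2 and 3 as well. They were taken from 2295 such intervals in WT replicate 1, 2760 of 155109 in replicate 2 and 3611 of 157037 in replicate 3. A summit is a local maximum of the read pileup, and the caller gave every summit of a joined interval its own row. Summit number in WT was therefore what chose the 1241 clustered sites, and their WT summit numbers and widths are given as a description.

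MITF is a basic helix-loop-helix leucine zipper transcription factor that directs the melanocyte lineage. It binds E-boxes as a dimer, above all CACGTG and the related CATGTG, and shares the CACGTG-centred element of lysosomal genes with its relatives TFEB and TFE3. In melanoma cells it is known to act on pigment, survival and lysosomal genes, from promoters and from distant enhancers.

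The profiles came from CUT&Tag, in which an antibody tethers a transposase that cuts and tags nearby DNA. HA-tagged protein was followed in UACC-257, an established human melanoma line, from 400000 cells a library. The groups were the MITF variants K243A, G244E, Y253A, E260A, Q261A, A264C, N278D, rep263A and rep217A, then Empty and WT, with 3 libraries in each of the 11 groups. Every group, Empty and WT included, carried the MITF knockdown and was treated with doxycycline. Replicates 2 and 3 of rep217A held identical lists, as did those of rep263A, so each pair was counted as 1 library and 31 distinct libraries remained. Separate cultures are not stated for the replicates, so p-values measure the spread between these libraries, which may be technical. What Empty, rep217A and rep263A contain is not spelled out in the labels and is not assumed here.

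Relative depth, recovered from the deposited fold enrichment and p-value of each summit as the commonest background pileup, averaged 0.129 ± 0.022 in G244E, 0.178 ± 0.058 in K243A, 0.312 ± 0.051 in rep217A and 0.457 ± 0.042 in rep263A (SD, n = 3, 3, 2 and 2). It lay between 0.697 and 1.49 in the libraries of the other 5 MITF variants, at 0.03 or less in Empty, and between 1.08 and 1.20 in WT. Summits missing from a shallow library may be absent or below its detection limit. Summits with a pileup of 1 made up 52.8% to 58.8% of the lists of G244E replicates 1 and 2 and K243A replicate 1, 60.7% to 67.6% of those of Empty, and none of the others. The lists of 2 G244E libraries held exactly 300000 rows each. Of the 1241 clustered sites, 1238 were on chromosomes 1 to 22 and X and were analysed. The other 3 lay on the mitochondrial genome (2) and an unplaced sequence of chromosome 1 (1). They held 3 to 5 summits in Empty libraries, against 4 or 5 in WT libraries.

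The clustered sites sat mostly at gene starts, and their promoters held CACGTG more often than all RefSeq promoters together did, with more G, C and CpG as well. Promoters of RefSeq (GRCh38.p14, 250 bp before to 50 bp after each start) are shown for 6 sites that recur in the results. CTSA encodes the lysosomal protective protein cathepsin A, and BIRC7 an inhibitor of apoptosis. CD63 is a tetraspanin of late endosomes and melanosomes, and ACP5 an acid phosphatase. FAM210A kept its cluster in every variant library. MC1R, the melanocortin receptor that signals to MITF, shows CATGTG alone. Sequences run 5′ to 3′ on the gene's strand, and capitals mark CACGTG, which reads the same on either strand, and CATGTG or its reverse complement CACATG.
CTSA promoter, chr20:45891085-45891384, plus strand: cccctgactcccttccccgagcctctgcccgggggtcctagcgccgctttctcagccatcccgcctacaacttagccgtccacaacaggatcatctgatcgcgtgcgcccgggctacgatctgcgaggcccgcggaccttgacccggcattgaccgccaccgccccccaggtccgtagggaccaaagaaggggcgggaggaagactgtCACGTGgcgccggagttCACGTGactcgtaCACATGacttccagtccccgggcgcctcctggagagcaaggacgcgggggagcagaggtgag
BIRC7 promoter, chr20:63235655-63235954, plus strand: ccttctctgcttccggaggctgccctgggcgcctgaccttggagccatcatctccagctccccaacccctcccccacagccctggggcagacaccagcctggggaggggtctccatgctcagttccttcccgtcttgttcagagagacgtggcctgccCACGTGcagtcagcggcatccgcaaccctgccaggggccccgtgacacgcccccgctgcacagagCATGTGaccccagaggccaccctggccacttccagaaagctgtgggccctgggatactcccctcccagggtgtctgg
CD63 promoter, chr12:55728960-55729259, minus strand: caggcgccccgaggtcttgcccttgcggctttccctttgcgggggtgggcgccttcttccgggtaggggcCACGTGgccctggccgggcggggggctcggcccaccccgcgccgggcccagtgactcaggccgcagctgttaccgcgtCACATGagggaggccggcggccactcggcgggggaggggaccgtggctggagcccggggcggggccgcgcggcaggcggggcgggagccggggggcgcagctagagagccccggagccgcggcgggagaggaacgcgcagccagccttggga
ACP5 promoter, chr19:11577596-11577895, minus strand: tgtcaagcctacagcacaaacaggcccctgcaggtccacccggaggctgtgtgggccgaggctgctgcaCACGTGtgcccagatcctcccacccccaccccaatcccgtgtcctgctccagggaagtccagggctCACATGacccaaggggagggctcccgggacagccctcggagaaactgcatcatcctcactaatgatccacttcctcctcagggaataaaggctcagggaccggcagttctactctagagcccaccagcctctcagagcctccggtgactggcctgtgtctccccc
FAM210A promoter, chr18:13726509-13726808, minus strand: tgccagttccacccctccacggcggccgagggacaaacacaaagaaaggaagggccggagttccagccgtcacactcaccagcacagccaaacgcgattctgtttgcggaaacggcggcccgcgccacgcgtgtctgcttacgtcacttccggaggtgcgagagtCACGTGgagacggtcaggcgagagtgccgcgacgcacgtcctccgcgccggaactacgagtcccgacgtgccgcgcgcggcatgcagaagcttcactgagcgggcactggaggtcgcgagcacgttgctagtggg
MC1R promoter, chr16:89918612-89918911, plus strand: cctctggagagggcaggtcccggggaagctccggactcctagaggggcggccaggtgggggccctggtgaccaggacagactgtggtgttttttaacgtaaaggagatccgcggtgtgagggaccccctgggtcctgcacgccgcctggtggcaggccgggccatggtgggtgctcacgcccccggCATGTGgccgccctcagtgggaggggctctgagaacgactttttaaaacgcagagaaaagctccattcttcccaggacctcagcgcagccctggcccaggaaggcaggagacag
Counted to the motif's first base, CTSA carried CACGTG at 42 and 25 bp before the start and CATGTG at 12 bp. BIRC7 carried CACGTG at 92 bp and CATGTG at 27 bp before its start, and CD63 carried them at 180 and 102 bp. In ACP5 they stood at 181 and 115 bp, FAM210A held CACGTG at 85 bp and MC1R held CATGTG at 64 bp before the start.

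Width and summit number rose together by construction, because the caller needs room for separate maxima. In WT replicate 1 the clustered sites were 809 to 2611 bp wide, with a median of 1284.5 bp (quartiles 1145.25 and 1445). Shared WT intervals of 2 or 3 summits (11635) had a median of 745 bp and those of 1 summit (45666) of 319 bp. Just inside the limit, all intervals of 4 summits in WT replicate 1 had a median width of 1152 bp and a median fold enrichment of 11.7, and just outside it those of 3 summits had 906.5 bp and 11.96. Fold enrichment did not separate clustered sites from intervals of 2 or 3 summits as width did. The median fold enrichment over background, as the authors' caller gave it, was 11.8 at clustered sites, 12.3 at intervals of 2 or 3 summits and 5.45 at those of 1 summit. The median highest −log10 q of an interval did separate the classes, at 92.7, 52.2 and 8.06 in the same order. For all intervals of 4 summits in WT replicate 1 it was 72.3, against 56.7 for those of 3.

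Most clustered sites were at the lower limit of the rule. In WT replicate 1, 779 held 4 summits, 352 held 5, 80 held 6 and 27 held 7 to 10. The counts at 4 summits were 698 and 649 in replicates 2 and 3, so replicate 3 held the most summits. Neighbouring summits of a clustered site stood a median of 270 bp apart (quartiles 229 and 324 bp), and in intervals of 2 or 3 summits the median was 268 to 270 bp over the 3 WT libraries. The spacing did not set the clusters apart: they held more summits at about the same distance.

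Gene starts marked the clustered sites. The promoter table used here held starts on every chromosome but 8, so starts were analysed for 1178 sites. It did not list every start on the others. No start was listed inside the sites of GAPDH, HEXA, ETV4 and TBX2, although each site held a boundary of that gene. Some sites counted as without a start or as distal may therefore hold an unlisted one. Of the 1178 sites, 820 (69.6%) held at least 1 listed start, against 34.7% of intervals of 2 or 3 summits and 3.49% of intervals of 1 summit. Starts of 2 or more genes lay within 286 sites (24.3%), against 8.61% and 0.314% in the other classes. In 277 sites (23.5%) genes on opposite strands had starts inside, against 8.13% and 0.278%, and among intervals with a start those shares were 33.8%, 23.4% and 7.94%. Wider intervals have more room for a start, so these shares are a description with no test. Away from starts, 281 sites (23.9%) lay more than 5000 bp from any listed start, against 54.0% and 83.5%. Relative to protein-coding genes, 977 of 1238 sites lay within 5000 bp of a gene end, 165 lay deeper inside a gene and 96 between genes. A gene end means either boundary of a gene here, where it starts or where it stops.

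The strongest summit mostly lay just before the start. In the 432 clustered sites with 1 gene start at 1 position, the strongest summit stood before the start in 76.4%, 76.2% and 74.3% of sites in the 3 WT libraries. Its median position was 60 to 62.5 bp before the start. All summits together were split about evenly, with 46.96% to 47.2% before the start, and the bin of 100 bp just before it held 288 summits in WT replicate 1 while the bin just after it held 56. Further peaks of density came at 200 to 300 bp into the gene (226 summits) and at 300 to 400 bp before it (137 summits), as the plot of summit positions shows. The low bin right after the start and the peaks around it recurred in all 3 WT libraries.

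**Figure D1:**
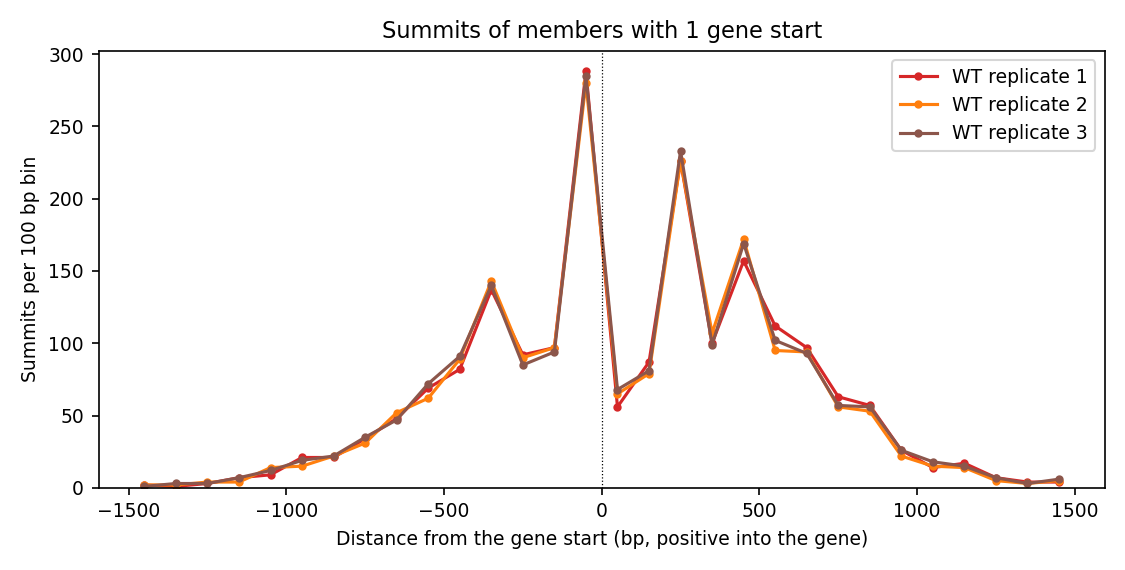
Number of summits per 100 bp bin (vertical axis) by distance from the gene start in bp (horizontal axis, positive into the gene) for the 432 clustered sites with 1 start, 1 line per WT library. The lines of the 3 libraries lie close together, with a maximum just before the start, a low bin just after it and further maxima on both sides.

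The promoters at these sites were rich in CACGTG. Of 1117 genes whose start lay in a clustered site, 18.9% had CACGTG in the promoter window, against 11.7% of 4785 genes at intervals of 2 or 3 summits and 7.45% of all 27195 genes in the table. CATGTG did not follow: 7.16% of promoters at clustered sites held it on either strand, against 6.04% and 11.2%. The CLEAR element, a longer element of lysosomal genes that contains CACGTG, was in 2.15% against 0.920% and 0.382%. The promoters were also richer in G and C, with a median of 68% against 66% and 58.3%, and in CpG, with 31 against 27 and 14 per window. The part of base composition in the motif shares was not tested.

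Across the 11 groups, clustering was lowest where the libraries were shallow. A clustered site counted as kept when an interval of 4 or more summits of the library overlapped it by at least 1 bp. A264C kept 82.9%, 84.2% and 76.8% of the 1238 sites in its 3 libraries, and Y253A kept 76.5%, 69.5% and 65.5%. Next came Q261A with 64.8%, 55.1% and 73.6%, N278D with 53.3%, 61.3% and 75.4%, and E260A with 61.7%, 67.6% and 51.9%. The A264C libraries lay above all libraries of the other 4 groups, which overlapped one another, and all lay below the 100% that the rule fixes for WT. The shallower groups kept fewer, with 41.2% and 41.0% in rep263A and 12.1% and 17.9% in rep217A. K243A kept 13.8%, 14.7% and 33.04%, the last in its deepest library (0.244), and G244E kept 10.8%, 9.05% and 12.7%. Among Empty libraries, 1 site was kept in replicate 1 (0.0808%) and none in the other 2, at a depth of 0.03 or less.

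Most sites were still overlapped by some called interval where they were no longer clustered, in Empty too. At least 98.9% of them overlapped a called interval in each library of each variant, against 78.6% to 84.9% in Empty libraries. The same shares over all shared WT intervals are not given for single libraries, neither for calls nor for clusters kept. These shares are therefore not read as particular to clustered sites. The mean number of summits inside a site was 4.25 ± 0.060 in A264C, 4.12 ± 0.063 in Y253A, 4.04 ± 0.179 in Q261A and 3.96 in N278D (± 0.187) and E260A (± 0.115; SD, n = 3 each). In the shallower groups it averaged 3.73 ± 0.00114 for rep263A, 3.03 ± 0.114 for rep217A (n = 2 each), 3.25 ± 0.360 for K243A, 2.89 ± 0.119 in G244E, 1.49 ± 0.0954 in Empty and 4.48 ± 0.014 in WT (n = 3 each). Width was lower in the same groups. The median width of the overlapping interval averaged 1278 bp in A264C, 1249 bp in Y253A, 1214 bp in N278D, 1192 bp in E260A and 1179.5 bp in Q261A. It averaged 1032 bp in rep263A, 819.5 bp in K243A, 716 bp in rep217A, 676 bp in G244E, 268 bp in Empty and 1307 bp in WT. Where a library of a variant did hold an interval of 4 or more summits, its median width in that group averaged 1134 bp (G244E) to 1224 bp (N278D), against 1217 bp in WT.

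**Figure D2:**
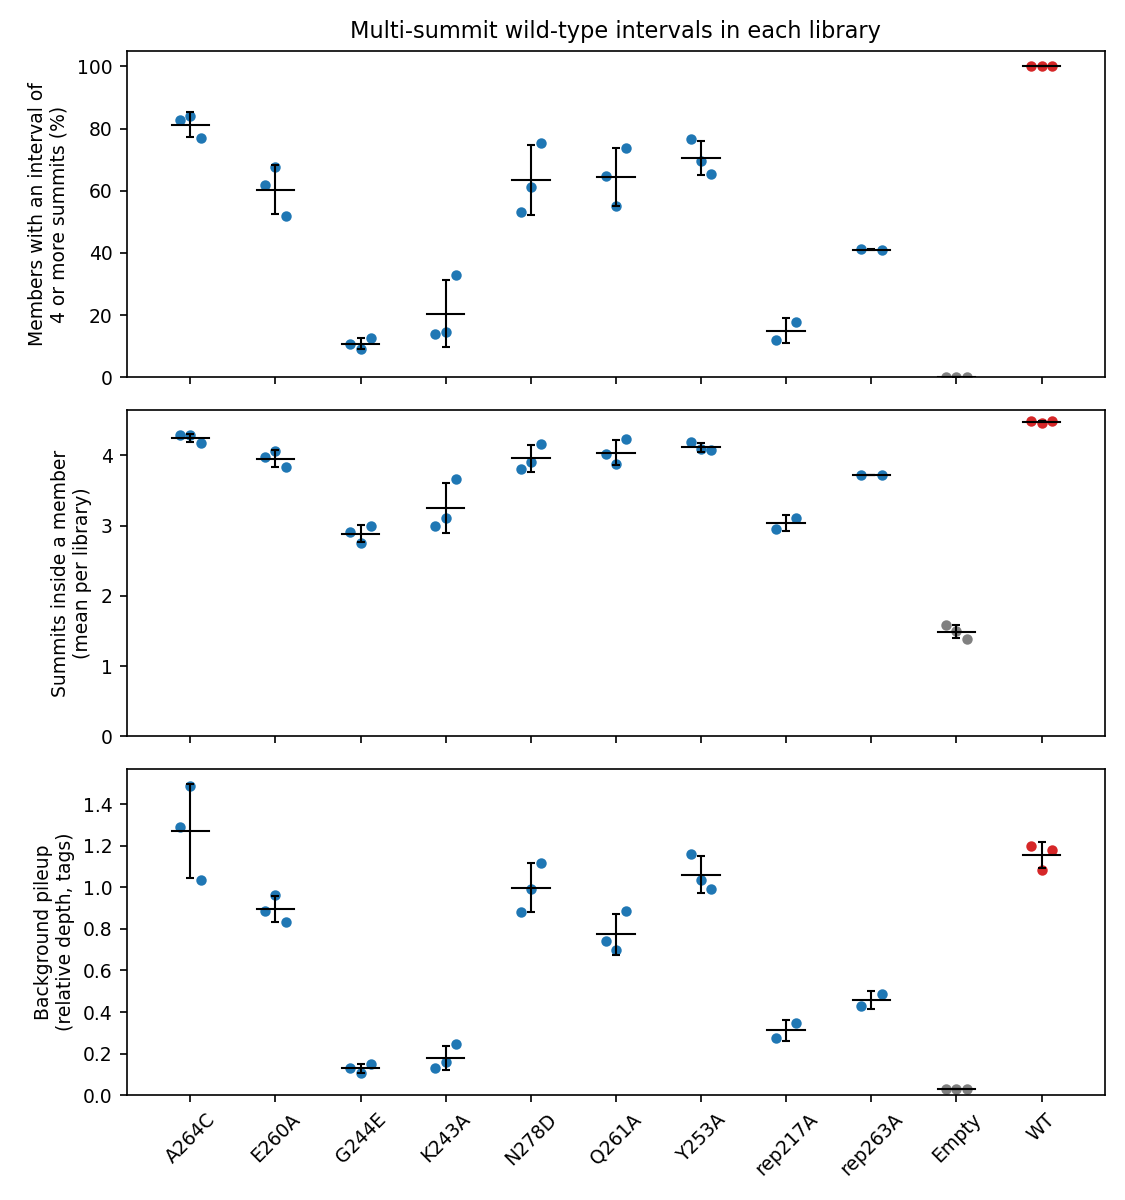
Share of the 1238 clustered sites overlapped by an interval of 4 or more summits (top, %), mean number of summits inside a site (middle) and background pileup as relative depth (bottom, tags), by group. Each point is 1 library, and the bars give the mean and SD. G244E, K243A, rep217A, rep263A and Empty are low in all 3 panels, and the WT points at 100% in the top panel are fixed by the rule.

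For the comparison with WT, intervals that the scored library did not choose were taken. Intervals of 4 or more summits shared by a pair of WT libraries (1463, 1634 and 1911 for the 3 pairs) were therefore used. A WT library was scored only on the pair formed by the other WT libraries, and any other library by its mean over the 3 pairs. The intervals were still chosen for 4 or more summits in WT, so a group that clusters at other places scores lower, and the differences speak of WT intervals alone. As intervals of 4 or more summits, A264C recovered 75.02%, 76.8% and 68.9% of them (73.6% ± 4.17), against 64.8%, 75.8% and 84.6% in WT (75.1% ± 9.94). The difference was -1.48 percentage points (permutation adjusted p = 1), and the A264C libraries lay inside the WT range. E260A recovered 53.8% ± 7.91, a difference of -21.2 points (permutation adjusted p = 0.0234). The differences of N278D (56.4% ± 11.3, -18.6 points, adjusted p = 0.0654), Q261A (57.0% ± 10.1, -18.0 points, adjusted p = 0.083) and Y253A (63.6% ± 5.99, -11.4 points, adjusted p = 0.591) did not pass the threshold of 0.05 in the permutation. These p-values are from a two-sided permutation of group labels over the 31 libraries (100000 resamples), adjusted over the family of 20 comparisons by the highest statistic.

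Among the shallower groups the fall was larger than the spread between libraries. Recovery was 35.1% ± 0.436 in rep263A (-39.9 points, permutation adjusted p = 8e-05), 17.3% ± 9.54 in K243A (-57.7 points), 12.7% ± 3.51 in rep217A (-62.3 points), 9.02% ± 1.56 in G244E (-66.0 points) and 0.0260% ± 0.0312 in Empty (-75.0 points). The last 4 had 1e-05, the smallest p that 100000 resamples can give. Their libraries held few intervals of 4 or more summits anywhere: 299 to 968 in K243A, 343 and 496 in rep217A, 215 to 328 in G244E and 0 to 2 in Empty. With 1463 to 1911 intervals to recover for a pair, recovery was bounded by these totals. These p-values therefore do not speak of a loss particular to the WT intervals. The same intervals were also scored with libraries deeper than 0.108 thinned to that common depth, while Empty was shallower and stayed as it was. The difference from WT (40.7% ± 8.77) was then -31.9 points in G244E (adjusted p = 1e-05), -31.1 in rep217A (adjusted p = 2e-05), -24.8 in K243A (adjusted p = 3e-05) and -16.7 in rep263A (adjusted p = 0.0195), all by the same permutation. These intervals were still those chosen at full WT depth. Thinned libraries also kept the interval boundaries and separate summits called at their own full depth, as a library sequenced shallowly would not. The comparison therefore cannot show what remains at an equal depth of calling. With intervals also defined at the common depth, which left 48 to 65 for a pair, the difference of K243A was -14.4 points and missed the threshold (52.3% ± 11.9, against 66.7% ± 10.1 in WT, permutation adjusted p = 0.106). With the intervals of full depth and libraries at the common depth, E260A no longer passed (-12.8 points, permutation adjusted p = 0.066), nor with intervals of 3 or more summits (-16.5 points, adjusted p = 0.0869), nor with any 1 of the 3 replicate numbers left out (-22.8 to -10.96 points). With 1 rep263A library left, its difference missed the threshold without replicate 1 (-37.5 points) and without replicate 2 (-33.8 points).

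Rank within a library is less tied to depth, and it ordered the groups in another way. A site counted as strong when a summit inside it was among the 10000 of highest −log10 q in that library. Over the intervals of the WT pairs, K243A gave 49.7%, 49.6% and 51.1% (50.1% ± 0.834), against 44.8%, 45.2% and 49.6% in WT (46.5% ± 2.67). Its difference was 3.56 points (permutation adjusted p = 0.306). G244E gave 47.7% ± 0.217 (1.20 points, permutation adjusted p = 0.999) and A264C 45.4% ± 0.538 (-1.16 points, adjusted p = 0.9997), so no difference from WT was detected in these 3 groups. The sign of each turned under some other settings.

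The other 6 variants placed the same intervals of the WT pairs lower in their lists. The share was 35.3% ± 0.651 in N278D (-11.2 points, adjusted p = 1e-05), 35.9% ± 1.34 in Y253A (-10.6 points, 1e-05), 36.7% ± 0.353 in rep217A (-9.82 points, 0.00012), 36.9% ± 2.32 in E260A (-9.68 points, 2e-05), 37.6% ± 1.13 in rep263A (-8.96 points, 0.00032) and 38.6% ± 2.84 in Q261A (-7.99 points, 0.00032), all by the same permutation. No library of these 6 groups reached the lowest WT library. The intervals were chosen in WT, so a group whose strongest summits lie at other places scores lower here too. These differences therefore speak of WT intervals alone. Empty gave 29.3% ± 3.21 (-17.2 points, permutation adjusted p = 1e-05), and this share was lower without weak summits. With summits of a −log10 q of at least 5 it was 5.84% ± 2.99 in Empty, against 55.1% ± 3.57 in WT, and 60.7% to 67.6% of the summits listed for Empty libraries had a pileup of 1. Without replicate 2, Q261A (-4.97 points), rep263A (-6.66 points) and rep217A (-7.48 points) no longer passed.

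**Figure D3:**
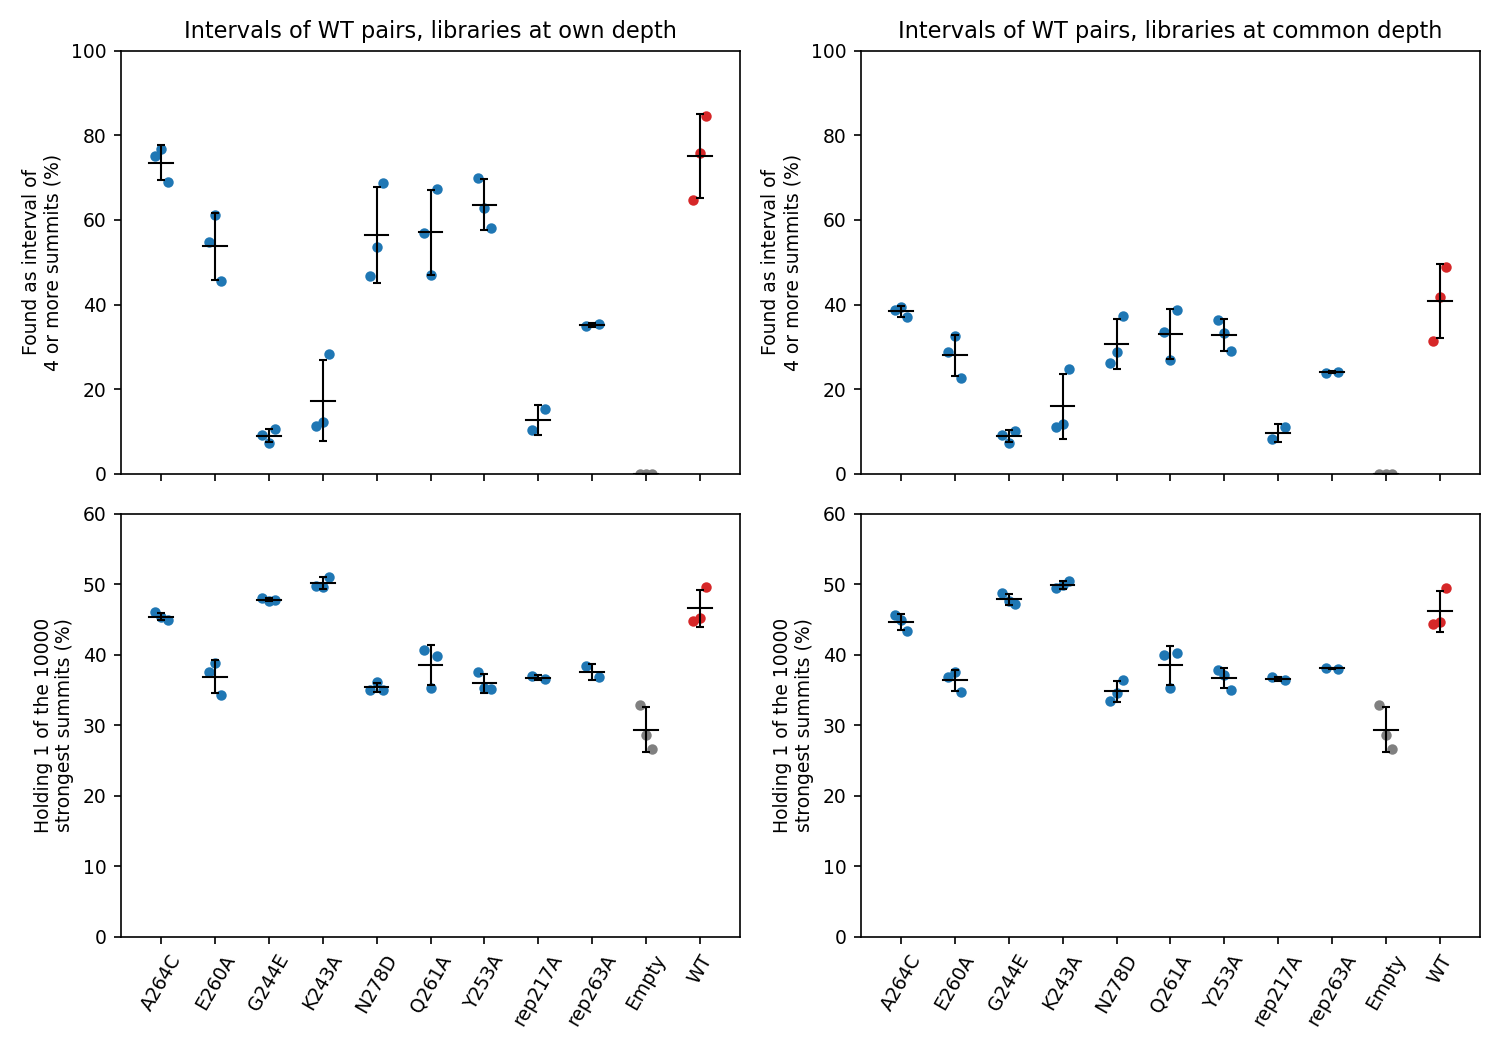
Intervals of 4 or more summits of WT pairs, by group: share found as an interval of 4 or more summits (upper row, %) and share holding 1 of the 10000 strongest summits (lower row, %), at each library's own depth (left) and with deeper libraries thinned to the common depth of 0.108 (right). Empty was shallower and is the same on both sides. Points are libraries and bars the mean and SD. In the lower row K243A and G244E stand beside WT and A264C, while the other variants lie lower and Empty lowest.

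Clustered sites outranked the intervals of 2 or 3 summits in every group the rule did not use. Over the group means of the 9 variants and Empty, 41.5% of clustered sites were strong, against 25.8% of intervals of 2 or 3 summits. The difference was 15.7 points (SD 5.26 over the 10 groups, higher in 10 of 10, exact two-sided sign-flip test p = 0.00195, the smallest this design allows). It was largest in K243A (53.4% against 27.7%) and smallest in N278D (36.9% against 26.1%), and in Empty it was 30.6% against 18.5%. Clustered sites are wider than the other class and had a higher median −log10 q in WT replicate 1 (92.7 against 52.2). They also hold more WT summits by definition, and any 1 summit among the strongest makes a site strong. The choice of classes thus favoured this direction. The part of these traits in the difference was not tested. All 10 groups score the same sites in the same cell line, so the sign-flip p-value does not speak of other sites or experiments.

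Clustered sites at a start ranked above distal ones. In the 10 groups other than WT, 44.3% of the 820 sites with a listed start were strong, against 36.3% of the 281 sites more than 5000 bp from any listed start. The difference was 8.07 points (SD 4.34, higher in 10 of 10 groups, exact sign-flip p = 0.00195, a comparison chosen after the data were seen). The gap was 15.4 points in G244E (55.2% against 39.9%) and 12.01 points in K243A (57.7% against 45.7%), and 2.21 points in Y253A (39.1% against 36.9%). Empty also showed it, with 34.1% against 23.01%, a gap of 11.1 points that only G244E and K243A exceeded. The groups all score the same sites in the same cell line, so this p-value does not speak of other sites or experiments either. In WT, described only, the shares were 52.7% against 44.2%. As a description, clustering was kept more often at starts than away from them in E260A (64.3% against 52.2%) and N278D (67.8% against 52.1%), and about equally in K243A (20.7% against 20.3%) and rep217A (15.2% against 15.5%).

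Sites were then split by CACGTG in the promoter. Of the 820 clustered sites with a start, 191 had CACGTG in a promoter window and 629 had none, with median widths of 1306 and 1289 bp in WT replicate 1 and a median GC content of 67.7% and 68.5%. Their median fold enrichment in WT replicate 1 was less alike, at 13.6 with CACGTG and 12.1 without it. The part of fold enrichment in the gaps was not tested. In A264C 71.0% ± 1.51 of sites with CACGTG were strong, against 46.4% ± 0.331 of those without it. WT, described only, gave 72.3% ± 2.28 against 46.8% ± 2.55. The gap was smaller in the other variants, at 67.5% against 54.7% in K243A, 51.0% against 39.6% in Q261A, 44.9% against 35.9% in N278D, 45.7% against 37.1% in Y253A, 47.9% against 39.4% in rep263A, 47.8% against 40.01% in E260A, 59.9% against 53.8% in G244E and 43.5% against 41.0% in rep217A. Empty had no such gap in that direction, with 31.8% ± 3.20 against 34.9% ± 2.61. Intervals of 2 or 3 summits also had the largest gaps in A264C and WT, with a gap of 22.9 points in A264C, 7.53 to 13.0 points in the other variants, 0.515 points in Empty and 22.8 points in WT, so those gaps are not particular to clustered sites. For CATGTG the gap ran from -10.4 points in G244E to 5.86 in rep217A, was 3.66 in A264C and 2.98 in WT, and in G244E and rep217A was larger in size than that for CACGTG.

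On the WT pairs, with each WT library scored on intervals it had not helped to choose, the gap between promoters with and without CACGTG was 25.8, 24.2 and 24.6 points in A264C (24.9 ± 0.812), against 22.6, 26.6 and 25.2 points in WT (24.8 ± 1.999). The difference was 0.0833 points (permutation adjusted p = 1 over 10 comparisons, chosen after the data were seen). Every other group had a smaller gap than WT, each with a permutation adjusted p of 1e-05, the smallest possible. The gap was 13.3 ± 1.00 points in K243A, 11.7 ± 2.64 in Q261A, 9.20 ± 0.953 in N278D, 9.14 ± 1.87 in rep263A (n = 2), 9.06 ± 2.37 in Y253A, 8.37 ± 1.05 in E260A, 6.36 ± 2.46 in G244E, 3.29 ± 0.279 in rep217A (n = 2) and -2.60 ± 1.73 in Empty. No library of these groups came within the range of WT. All of these intervals were chosen for their summit number in WT, so the differences speak of WT intervals alone. With deeper libraries thinned to the common depth the gap was 23.1 ± 6.02 points in A264C, 11.7 ± 1.68 in K243A, the highest of the other groups, and 24.7 ± 2.51 in WT. All 9 differences still passed, but Empty was shallower than the common depth, so its difference was not matched for depth.

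The strongest summit also lay nearer to CACGTG in A264C and WT, given here as a description with no test. In the 153 clustered sites with exactly 1 CACGTG in their promoters, the strongest summit of the site lay within 50 bp of the motif's middle in 42.9% ± 1.997 in A264C, 26.9% (rep217A) to 33.8% (Q261A) in the other variants, 14.3% ± 3.36 in Empty and 41.6% ± 1.997 in WT (SD, n = 3, or 2 for rep217A and rep263A). In Empty, an average of 125 of these sites held any summit.

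**Figure D4:**
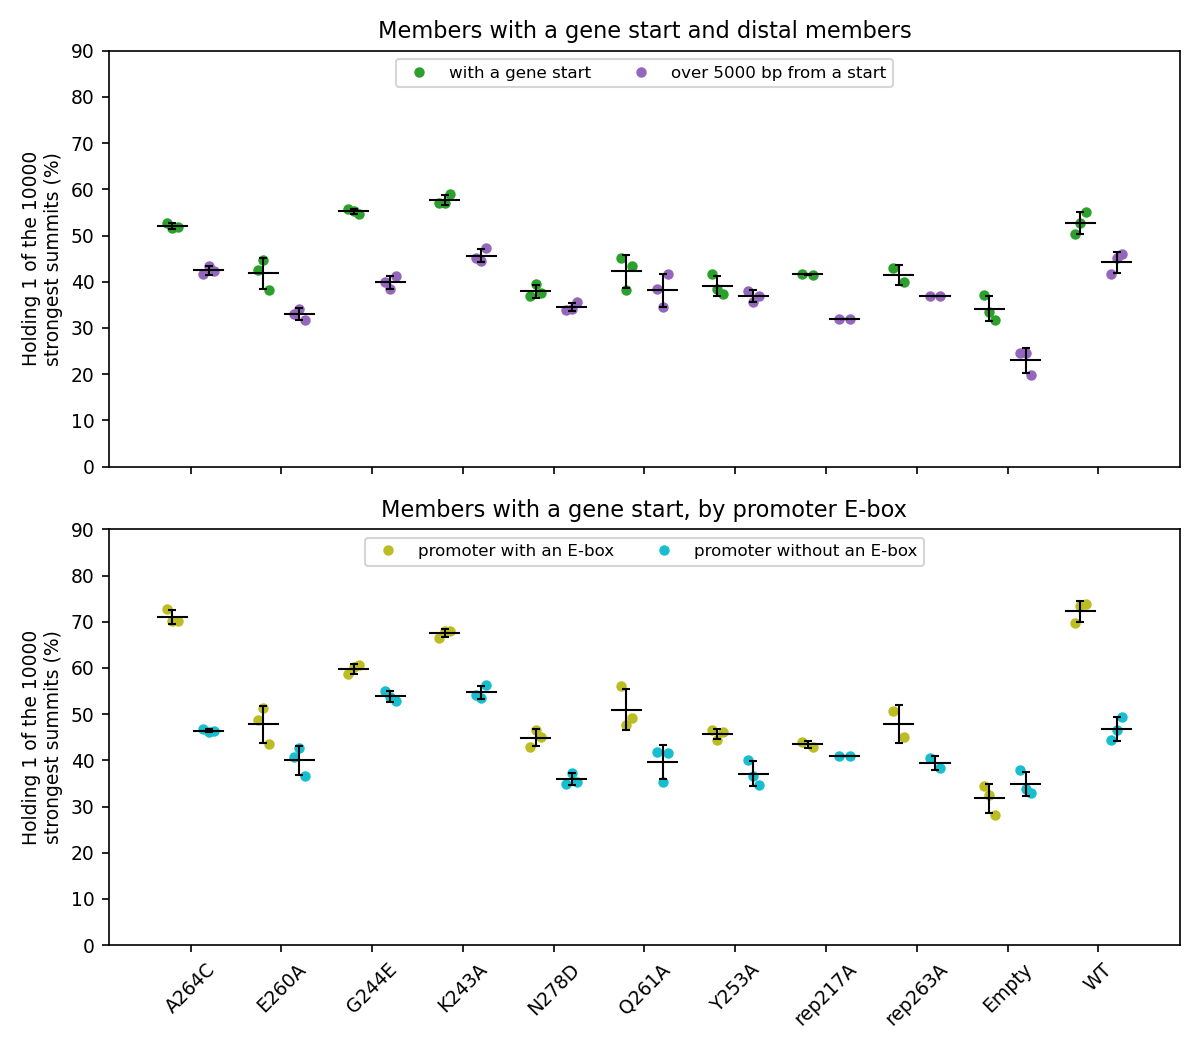
Share of clustered sites that hold 1 of the 10000 strongest summits of a library (%, vertical axis) by group. The upper panel sets the 820 sites with a listed gene start beside the 281 more than 5000 bp from any listed start. The lower panel sets the 191 sites whose promoter holds CACGTG, an E-box, beside the 629 without it. Points are libraries, bars the mean and SD, and the gap in the lower panel is wide in A264C and WT and absent or turned in Empty.

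Summit number in WT went with how often a cluster was kept. The 876 sites with a WT mean of 4 to under 5 summits were clustered in a median of 11 of the 25 variant libraries, the 303 with 5 to under 6 in 14, and the 59 with 6 or more in 16. Over all sites the median was 12 (quartiles 8 and 16). Sites with more WT summits were also wider, with median widths of 1223.5, 1417 and 1743 bp in the same order. Sites with 4 summits stood at the very limit that counts a cluster as kept. The trend is therefore a description with no test. Sites clustered in all 25 variant libraries numbered 6, where the background over 85782 shared WT intervals was 0.00699%, which is the same 6 intervals. In K243A 65 sites were clustered in every library (background 0.0979%) and in G244E 28 (background 0.0431%). Every Empty library called 758 of the 1238 sites (background 10.1%), and 37 were called in none of them, for which no background share is given. The sites strong in every variant library numbered 206 (background 2.54%), and those strong in every Empty library 126 (background 1.57%). The rule chose sites from WT alone, so these shares are set beside the background with no test. The background also includes narrower intervals: shared intervals of 1 summit had a median width of 319 bp, against 1284.5 bp at clustered sites. Wider sites have more room for a call or a strong summit, and the part of width was not tested.

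The 10 sites with the most summits in WT were SIRT4, MAD1L1, CLUH, MROH1, KCNAB2, YAP1, the CTSA site, MX1, SSH1 and FBXO11. SIRT4 encodes a mitochondrial sirtuin, and its site (chr12:120290795-120293208, 2414 bp) lay over the gene's start. It held 7, 7 and 6 summits in A264C, 6, 7 and 9 in N278D, 3 and 3 in rep217A, 2, 3 and 5 in G244E, 4, 2 and 2 in Empty, and 8, 8 and 9 in WT. SIRT4 was the 1 site clustered in an Empty library, and it was strong in all 3 Empty libraries and in none of WT. Its promoter held neither motif.

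MAD1L1, whose product acts in the spindle checkpoint, had its cluster deep inside the gene (chr7:1938804-1940986), 123009 bp from the nearest gene end. It held 9 and 9 summits in rep263A, 7, 8 and 9 in A264C, 7, 6 and 5 in K243A, 4, 2 and 2 in G244E, 1, 0 and 1 in Empty, and 8, 8 and 7 in WT. It was strong in all 25 variant libraries. K243A thus kept it in every library at a depth where most clusters were lost.

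CLUH, which binds messenger RNAs of mitochondrial proteins, shared its site with a start on the other strand (chr17:2710674-2712696). It held 8, 7 and 6 summits in A264C, between 2 and 6 in every other variant library, 0, 1 and 1 in Empty, and 9, 8 and 5 in WT. The CTSA site, which also holds the start of NEURL2 on the other strand (chr20:45890093-45891900), had 7, 6 and 8 summits in A264C, 6, 7 and 8 in Q261A, 2 and 2 in rep217A, 1, 1 and 1 in Empty, and 6, 7 and 8 in WT. Its fold enrichment in WT was 11.5, 10.4 and 11.04. MX1, an interferon-induced GTPase, stayed at 6 or 7 summits in N278D, E260A, Q261A and Y253A libraries, stood at 1 in each G244E library and held 8, 6 and 7 in WT (chr21:41419962-41421645).

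KCNAB2, a subunit of potassium channels, held 7 summits in each A264C library, 5 in each Y253A library, 1 and 2 in rep217A, and 7 in each WT library (chr1:6025325-6027500). SSH1, a phosphatase that acts on cofilin, was clustered in 21 variant libraries, and MROH1 in 20. The sites of FBXO11, an F-box protein, and YAP1, the coactivator of the Hippo pathway, varied more. FBXO11 held 10, 5 and 6 summits over 2611, 1405 and 1494 bp in the 3 WT libraries, so its place as the widest site rests on replicate 1. The YAP1 site (chr11:102109864-102112220) held 4, 8 and 3 summits in A264C, 1 and 2 in rep217A, 1 in each Empty library, and 7, 6 and 8 in WT. After FBXO11 the widest sites in WT replicate 1 were SIRT4 (2414 bp), YAP1 (2357 bp), EOLA2 (2279 bp) and CD63 (2219 bp). CD63 kept 6, 7 and 6 summits in A264C, had 2 in each K243A library and 1 in each Empty library, and held 6, 6 and 7 in WT.

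The 6 sites clustered in every variant library were those of PDIK1L, EOLA2, PDP1, DRAM2, SP1 and FAM210A, named after their values were seen. SP1, a zinc finger factor of GC-rich promoters, was the steadiest: 24 variant libraries held 4 summits and 1 K243A library held 5, against 4 in each WT library and 1, 2 and 1 in Empty. PDIK1L, a protein kinase gene, held 6, 6 and 7 summits in G244E, 6 and 6 in rep217A, 1 in each Empty library, and 7, 6 and 6 in WT. EOLA2 held 5, 8 and 6 in G244E and 6, 7 and 5 in WT. PDP1 encodes the phosphatase of the pyruvate dehydrogenase complex and DRAM2 a lysosomal membrane protein of autophagy, and DRAM2 shared its cluster with the opposite start of CEPT1. G244E, among the groups with the fewest clusters, held 4 to 8 summits at these 6 sites.

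At the other end, 5 sites were clustered in no variant library. LEPR, the leptin receptor gene, held 2, 3 and 2 summits in A264C, 1 in each K243A library, 2, 1 and 1 in Empty, and 4 in each WT library (chr1:65419732-65421081). It was strong in all 25 variant libraries, all 3 Empty libraries and all 3 WT libraries, so it kept its rank and lost its separate summits. MRPS9, a protein of the mitochondrial ribosome, had fold enrichments of 22.3, 17.0 and 24.9 in WT, and its cluster of 4, 5 and 4 summits stood at 3 summits in each A264C, E260A and Y253A library. GADD45B, a stress-response gene, and CABLES1, which codes for an adaptor of cyclin-dependent kinases, were called in no Empty library. GADD45B was strong in no library, and CABLES1 was strong in 18 variant libraries and in all 3 WT libraries. The fifth lay between genes on chromosome 8, nearest to LOC124902048, with 2 summits in each A264C library and 4 in each WT library.

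After SIRT4, sites with many summits inside them in Empty included ZBTB1, FAM210A, MBOAT7 and ING5, and EOLA2 had as many with 5, 2 and 4. Summits inside the site numbered 7, 5 and 3 in the Empty libraries for SIRT4, 5, 3 and 3 for ZBTB1, 4, 3 and 4 for FAM210A, 3, 3 and 5 for MBOAT7, and 4, 4 and 3 for ING5. Of these, FAM210A was strong in no Empty library, while MBOAT7 and ING5 were strong in all 3. ZBTB1 and MBOAT7 shared their clusters with opposite starts, those of ZBTB25 and TSEN34. By the interval with most summits, ZBTB1, FAM210A and ING5 each stood at 1 in every Empty library, and over all sites Empty averaged 1.49 summits inside, against 4.48 in WT.

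**Figure D5:**
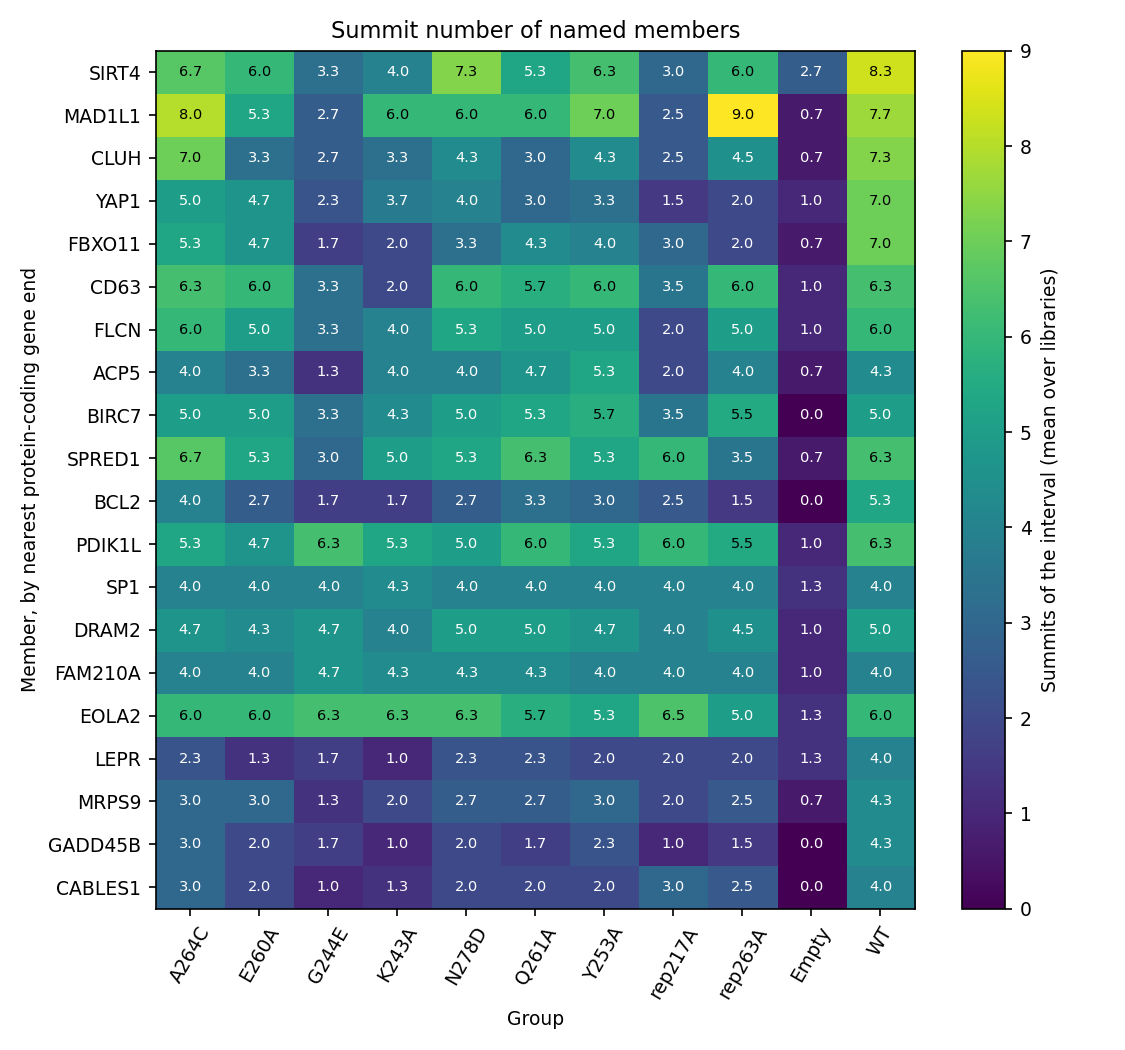
Mean number of summits of the interval with most summits at 20 named clustered sites (rows) in each group (columns), printed in each cell and coloured from 0 to 9. SP1, DRAM2, PDIK1L, FAM210A and EOLA2 stay at 4 or more in all variants, LEPR, MRPS9, GADD45B and CABLES1 stay at 3 or fewer outside WT, and the Empty column is at 2.7 or below.

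Genes were also counted by lists. Over all protein-coding genes, 6.88% (1375 of 19974) had either boundary within 5000 bp of a clustered site. Among 16 pigmentation genes 1 did, MC1R (6.25%, near that background), with TRPM1 touched inside its body. The MC1R site (chr16:89917811-89919130) held 4, 3 and 2 summits in A264C, 1, 2 and 4 in N278D, 1, 1 and 0 in Empty, and 5, 5 and 4 in WT. Its fold enrichment in WT was low, at 5.86, 4.57 and 5.74, and it was strong in no WT library.

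Of the lysosome and autophagy genes 6 of 22 (27.3%) had a clustered site, with no test and in a list chosen with earlier results known. They were FLCN, FNIP1, WIPI1, GABARAPL1, ACP5 and HEXA. FLCN, folliculin of lysosomal nutrient sensing, held 6 summits in each A264C library, 5 in each Q261A, Y253A, E260A and rep263A library, 2 and 2 in rep217A, 1 in each Empty library and 6 in each WT library (chr17:17236458-17237813). ACP5 held 6, 4 and 6 summits in Y253A and 5, 4 and 5 in Q261A, had 1, 1 and 2 in G244E, and held 4, 5 and 4 in WT, with overlap between Y253A, Q261A and WT. HEXA encodes a subunit of lysosomal hexosaminidase, and its site had fold enrichments of 14.1, 14.0 and 14.8 in WT. GABARAPL1, an autophagy protein, was clustered in 16 variant libraries but strong in 1 of them and in no WT library.

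Survival, cell cycle and metabolism genes gave 4 of 16 (25%), namely BCL2, BIRC7, DICER1 and TBX2. BIRC7 (chr20:63235405-63237062) was among the sites that stood apart from Empty. It held 5 summits in each A264C, E260A and N278D library, 4, 5 and 4 in K243A, 3, 4 and 3 in G244E, and 5, 4 and 6 in WT, and it was called in no Empty library. BCL2, the inhibitor of apoptosis, was called in no Empty library either, and held 4, 5 and 3 summits in A264C, 1, 2 and 2 in K243A and 5, 5 and 6 in WT. DICER1, the microRNA-processing nuclease, was clustered in 14 variant libraries, and the T-box repressor TBX2 in 15 with 6, 5 and 5 summits in A264C against 4 in each WT library.

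Lineage regulators gave 2 of 13 (15.4%), SOX10 and PAX3, transcription factors that act upstream of MITF. SOX10 had 2 clustered sites. The one nearer to the gene (chr22:37984998-37986808) lay 443 bp past the gene's boundary at 37984555. It held 5, 6 and 6 summits in A264C, 1, 2 and 4 in K243A, 1 in each Empty library and 5, 5 and 9 in WT. The other (chr22:37967871-37969236) was clustered in 4 variant libraries and was strong in all 3 Empty libraries and in no WT library. PAX3 was clustered in 14 variant libraries.

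Feedback genes of the MAPK pathway gave 4 of 12 (33.3%), SPRY4, SPRED1, ETV4 and IER3. SPRED1, an inhibitor of RAS signalling (chr15:38251159-38252866), held 6 and 6 summits in rep217A, where most clusters were lost, 4, 5 and 6 in K243A, 1, 1 and 0 in Empty and 6, 6 and 7 in WT. ETV4 held 4 and 4 in rep217A and 4, 5 and 4 in WT. SPRY4 was clustered in 10 variant libraries and the IER3 site, nearest to FLOT1, in 16. Genes of the invasive state gave 2 of 15 (13.3%), TEAD4 and YAP1, and TEAD4 held 1 and 1 summits in rep217A, against 5 in each WT library.

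Housekeeping genes, listed for comparison, reached 4 of 16 (25%) with GAPDH, PPIA, RPLP0 and YWHAZ, a share like that of the lysosome and survival lists. GAPDH and PPIA were strong in all 25 variant libraries, in all 3 Empty libraries and in all 3 WT libraries. Markers of other cell types were rare: no gene of 12 for hepatocytes or of 12 for keratinocytes had a clustered site, and of 12 lymphoid genes only LCK did, by the site at the start of its neighbour FAM167B. The lists hold 146 genes in all, of which 24 had a clustered site within 5000 bp.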

How the data were processed

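CUT&Tag peak lists of 33 UACC-257 libraries were analysed, 1 narrowPeak list for each library. Per the submitters' processing notes, Bowtie2 2.3.4.3, bcl2fastq 2.20.0.422, MACS2 (no version given there) and hg38 were used. In each row the authors deposited a fold enrichment (a ratio of summit to background), a −log10 p and a −log10 q of the summit, and the summit's offset in bp. The score that the authors deposited in the same rows was not used. The sources used here name no control library and no duplicate removal.

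Rows with the same chromosome, start and end formed 1 interval, and its rows were counted as summits. Chromosomes 1 to 22 and X were kept (other sequences held 0.0833% to 0.207% of a list), and an overlap was at least 1 bp. Fold and p gave the whole-number pileup and its background, which met the deposited values in 99.985% of rows or more in every library. The commonest background served as relative depth, and deeper libraries were thinned by binomial sampling to 0.108. Empty libraries were shallower and were left unchanged. Only listed summits can be thinned, and their interval boundaries stay as called.

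Shares were compared with a two-sided permutation of group labels (100000 resamples, seed 1, highest statistic over the family) and exact sign flips over groups. Tests were checked on simulated data. Genes, starts and promoters came from RefSeq GRCh38.p14. Named sites were the 10 with most WT summits, the 5 widest, up to 4 for each gene list, the 5 highest in Empty and the 5 kept in fewest variant libraries. Each was called by the protein-coding gene with the closest boundary, start or stop. The sites, lists and tests were chosen with earlier results of these data known. Python 3.11.15, numpy 2.4.6, pandas 2.3.3, scipy 1.17.1 and matplotlib 3.10.9 were used.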

Additional observations from a re-analysis of the deposited data

Results flagged for a closer look

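The gap that went with CACGTG in the promoter differed between groups. At start-holding intervals of the WT pairs, the gap in strong share between promoters with and without CACGTG was smaller than in WT by a test of the difference itself (permutation of group labels, adjusted over 10 comparisons, p = 1e-05 each) in 9 groups. The difference of that gap from WT was -11.5 percentage points in K243A, -13.1 in Q261A, -15.6 in N278D, -15.6 in rep263A, -15.7 in Y253A, -16.4 in E260A, -18.4 in G244E, -21.5 in rep217A and -27.4 in Empty. All libraries of these groups lay below the lowest WT library. The intervals were chosen in WT and the comparison after the data were seen, so these differences speak of WT intervals alone.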

How the results depend on the processing

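The comparisons against WT were repeated with other summit limits, a −log10 q of at least 5, an overlap of 50% of the shorter interval, summits nearer than 150 bp counted as 1, a common depth, 5000 or 20000 strongest summits, each replicate number left out, and, added after the data were seen, fixed intervals at the common depth and a pileup of at least 2. The member count from WT replicates 2 and 3, the list count by other distances, the comparison with intervals of 2 or 3 summits and that of start-holding with distal sites kept their direction and call throughout.

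For recovery as intervals of 4 or more summits, E260A missed the threshold with 3 or more summits (-16.5 points) and with fixed intervals at the common depth (-12.8), while with 5 or more summits N278D (-21.8) and Q261A (-21.6) passed. When the intervals themselves were defined at the common depth, which left 37 clustered sites, K243A missed it (-14.4) and N278D (-33.1) and Y253A (-21.0) passed. For recovery among strongest summits, G244E turned negative with 5 or more summits (-1.82), a −log10 q of at least 5 (-0.462), common-depth intervals (-9.42) and 20000 strongest (-1.13), and K243A with common-depth intervals (-2.53). There Q261A (-6.89) and rep263A (-11.5) missed the threshold. For the CACGTG gap, A264C turned to -2.01 with 20000 strongest and -1.64 at the common depth, and Q261A missed the threshold with 20000 strongest (-2.83). The cause was not tested.

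Leaving out a replicate number, with intervals from 1 other WT library, gave recovery differences of -7.62 to 4.29 in A264C, -22.8 to -11.0 in E260A, -18.2 to -14.3 in N278D, -19.9 to -11.4 in Q261A and -37.5 to -31.3 in rep263A. Among strongest summits it gave -1.61 to 0.179 in A264C, -7.27 to -4.97 in Q261A, -8.59 to -7.04 in rep217A and -7.67 to -6.66 in rep263A. The CACGTG gap of A264C ranged from -0.964 to 0.635. N278D and Q261A passed for recovery without replicate 3.

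With the replicate number as a block, no call changed, and the differences were the same except in rep217A and rep263A (CACGTG gap -21.5 and -15.7). Same-numbered libraries did not deviate together (mean correlation -0.0042 over 146 pairs, from -0.0893 to 0.0929, with 5 of 31 libraries closest to their own number). Depth limits what Empty, G244E, K243A and rep217A can show.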
